A study of Homo sapiens with 3 samples.

Results

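The small nucleolar RNA host genes were defined as every row of the ribosome footprint table whose symbol is SNHG followed by a number, together with GAS5, DANCR, ZFAS1 and EPB41L4A-AS1. This rule uses names and no measured value. It found 34 rows of 63241, with 33 different symbols, because SNHG33 is listed on 2 rows. Ribosome profiling (Ribo-seq) sequences the RNA fragments that a ribosome shields from nuclease, and the fragments (footprints) were counted per gene. The libraries came from HEK293T, an established line from human embryonic kidney with the large T antigen of SV40. A p53 construct was expressed in each group, either wild type (WT) or one of the DNA-binding domain mutants G245S and R273H, and no group without a construct was analysed here. There were 3 culture dishes in each of the 3 groups. All dishes received cycloheximide, which stalls ribosomes, for 2 min, and lysates were digested with micrococcal nuclease for 30 min. Per the labels the dishes of a group were pooled at reverse transcription, so group and pool cannot be told apart. The labels call the cells stable lines in some fields and transient expressers in others, and the mutants' treatment field names the wild-type construct; groups were read from the titles. Per the study's methods, the lines were made by lentiviral delivery and puromycin selection, and nothing says that a line is a single clone.

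A small nucleolar RNA (snoRNA) host gene is transcribed as a longer RNA whose introns hold snoRNAs. Splicing releases the introns, which are trimmed to snoRNAs that guide ribose methylation (C/D box) or pseudouridylation (H/ACA box) of ribosomal and spliceosomal RNA, and small Cajal body RNAs (scaRNAs) are their relatives for the spliceosome. The spliced exons that remain have long been known as cytoplasmic RNAs without a conserved protein. Many of them begin with a pyrimidine tract like that of ribosomal protein mRNAs (the terminal oligopyrimidine, or TOP, motif), are bound by ribosomes at short reading frames, and are degraded by nonsense-mediated decay when they are translated. Several are also known as long noncoding RNAs in their own right, such as GAS5, named for its accumulation in growth-arrested cells.

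The first 30 bases of 6 members are shown because the pyrimidine tract described above, where present, is read there. They were read from GRCh38 at the start of the Ensembl canonical transcript of GENCODE v44, 5′ to 3′ on the gene's strand, and capitals mark the unbroken run of C and T that begins with the first base when that base is C.
GAS5: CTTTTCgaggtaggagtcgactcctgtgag
ZFAS1: CTTTCgcgtctgcggtgcccggagtgtggt
SNHG7: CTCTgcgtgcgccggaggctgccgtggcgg
DANCR: ggcctctttgtcagctggagttgcgcgggc
SNHG10: gaagtttccggttccggtgtcagcggcggt
SNHG20: tgtagttttcgcctgtccaggacgccttca

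GAS5 starts at position 173867989 of chromosome 1 (minus strand), ZFAS1 at 49278642 of chromosome 20 (plus), SNHG7 at 136728184 of chromosome 9 (minus), DANCR at 52712501 of chromosome 4 (plus), SNHG10 at 95534642 of chromosome 14 (minus) and SNHG20 at 77086716 of chromosome 17 (plus). The runs of GAS5 and ZFAS1 are 6 and 5 bases long and that of SNHG7 is 4, while DANCR, SNHG10 and SNHG20 do not begin with C. A start with C and at least 5 bases of C or T in all, read on the gene's own strand, was found in 4 of the 34 canonical transcripts of the members (11.8%; SNHG29, ZFAS1, SNHG12 and GAS5) and in 2.75% of the canonical transcripts of all genes of the table. At the starts given by RefSeq (GRCh38), where 29 of the symbols matched 30 promoter entries, it was found in 7 (23.3%; SNHG12, SNHG18, SNHG4, SNHG32, SNHG5, SNHG19 and ZFAS1) and in 4.07% of all promoters. The RefSeq entry of GAS5 starts at position 173869045 and does not begin with C, so whether a member carries this start depends on the annotation. The p53 half-site consensus, searched on both strands in the window from 250 bases before to 50 bases after the RefSeq start, was found in 6.67% of the members' promoters (SNHG28 and ZFAS1) and in 6.63% of all promoters. These matches are descriptions of sequence and not evidence of use.

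Of the 34 rows, 28 had enough counts to be tested. The other 6 held at most 10.0 counts in any library: SNHG14, SNHG18, SNHG27, SNHG28, SNHG31 and the second SNHG33 row, with SNHG18 listed at 0 in every dish. SNHG14 is the long transcript of the Prader-Willi region, which holds 84 of the hosted snoRNA rows. GENCODE types 33 of the 34 rows as long noncoding RNA. Levels are given in CPM (counts scaled to a common normalised library total). The 28 tested members averaged between 2.03 CPM (SNHG4) and 89.7 CPM (SNHG16), with a median of 15.4 CPM against 11.0 CPM over all 19820 tested genes. Together the members took between 0.0566% and 0.0606% of the counts of a library. Their summed level was 586 ± 9.55 CPM in WT (SD, n = 3 dishes), 586 ± 12.3 CPM in G245S and 597 ± 4.97 CPM in R273H.

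Per length, the order of the members depended on which length was used, because a host gene has many annotated isoforms. Per kilobase of merged exons, the highest levels were 15.5 CPM for SNHG16, 12.8 for SNHG9, 11.6 for SNHG25, 10.3 for SNHG30 and 9.21 for SNHG1, and the lowest was 0.353 for SNHG26. In this order the difference between SNHG25 (10.7, 12.8 and 11.5 in WT, G245S and R273H) and SNHG30 (10.9, 9.85 and 10.1) was within the SD of SNHG25 in every group, and SNHG8 (6.38) lay within that of SNHG7 (6.33) in all 3 groups. Per kilobase of the canonical transcript, SNHG16 (180 CPM) and SNHG29 (160 CPM) stood apart, followed by GAS5 (40.3), SNHG1 (31.5) and SNHG20 (25.0). SNHG29 thus moved from 7.95 to 160 CPM per kilobase with the choice of length. The first AUG of the canonical transcript opens a reading frame of 50 codons in GAS5, 57 in SNHG1, 53 in SNHG29, 33 in SNHG16, 44 in SNHG20, 29 in SNHG10 and 1 in DANCR. Where on a transcript the footprints lay is not recorded in a table of counts per gene.

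**Figure D1:**
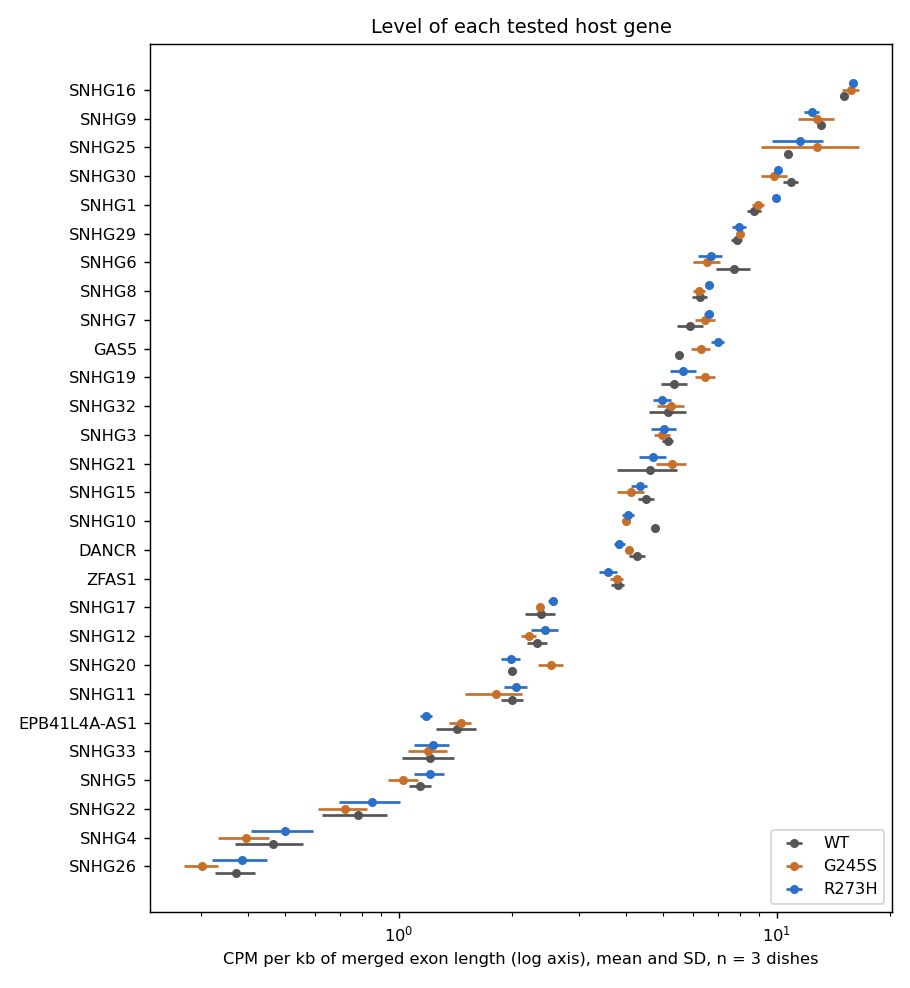
Footprint level of the 28 tested host genes in CPM per kilobase of merged exon length on a log axis, with the mean and SD of 3 dishes for WT, G245S and R273H. Genes range from 0.353 (SNHG26) to 15.5 (SNHG16) over all dishes, and for most genes the 3 groups lie close together compared with the distance between genes.

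The libraries held 18.7 to 24.6 M counts, with TMM factors of 0.987 to 1.01, and every pair of dishes of a group differed by more than counting error (chi-square per degree of freedom 1.48 to 2.62). The WT construct could be told apart from the mutants by 2 transcriptional targets of p53. MDM2, its ubiquitin ligase, averaged 860 CPM in WT, 76.8 in G245S and 76.7 in R273H. CDKN1A, the p21 cell-cycle inhibitor, averaged 61.1, 16.1 and 13.9 CPM. Neither was called between the mutants (edgeR's quasi-likelihood test, adjusted p = 0.981 and 0.0880), so they do not show which mutant is which. Of 5 epithelial markers, KRT8, KRT18, CDH1 and EPCAM were present (4.27 to 113 CPM) and KRT19 reached at most 1.00 count, and all 6 genes listed for HEK293 cells were present at 6.40 CPM or more. Markers of blood, endothelium and muscle did not exceed 3.00 counts, while the fibroblast collagens COL1A1 (29.4 CPM) and COL3A1 (4.42 CPM) were present. The summed other-cell list was 35.6 to 39.1 CPM in WT, 28.6 to 34.5 in G245S and 31.1 to 33.1 in R273H, and its part in the results was not tested.

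The host genes differed little between the p53 groups. All 28 tested members stayed within a log2 fold change of 0.35 in size in both mutants, G245S spanning -0.29 to 0.34 and R273H -0.28 to 0.34. A member was called at an adjusted p under 0.05 (edgeR's quasi-likelihood test, Benjamini-Hochberg over all 19820 tested genes). In G245S against WT, 4 of 28 members were called (14.3%), of which GAS5 and SNHG20 rose and SNHG10 and SNHG6 fell, against 24.7% of all tested genes. In R273H against WT, 5 of 28 were called (17.9%), of which GAS5, SNHG1 and SNHG7 rose and DANCR and SNHG10 fell, against 28.8% of all tested genes. Without G245S dish 1 the G245S count was 2, and without R273H dish 1 the R273H count was 3. No member passed when the change had to exceed 1.2-fold, and with DESeq2 the calls were SNHG10 and SNHG20 in G245S and GAS5, SNHG1 and SNHG10 in R273H. The 3 dishes of each group did not overlap for 4 members in G245S against WT (14.3%, against 37.4% of all genes) and for 7 in R273H against WT (25.0%, against 41.2%). The median log2 fold change of the members was -0.011 in G245S and 0.027 in R273H, beside -6.9e-04 and -0.0024 over all tested genes, and the G245S median changed sign with the normalisation (0.0014 with upper-quartile scaling). The 2 comparisons share the WT dishes, so their values are not independent of each other.

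The hosts can be set beside all long noncoding RNAs of the table, a set that includes them. The median level of those tested was 1.44 CPM. Of 1678 tested long noncoding RNAs, 209 were called in G245S (12.5%; 32 higher and 177 lower) with a median log2 fold change of -0.17, and 253 in R273H (15.1%; 53 higher and 200 lower) with a median of -0.14. Protein-coding genes were called at 30.5% and 33.9%. A member's 95% interval reached a median of 0.162 to either side on the log2 scale in G245S and 0.160 in R273H, which limits the size of change that could be detected. In cells in bulk, fewer cells that make an RNA and less RNA per cell cannot be told apart, and because RNA-seq was not used here the amount of a host RNA and its occupancy by ribosomes cannot be told apart either.

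**Figure D2:**
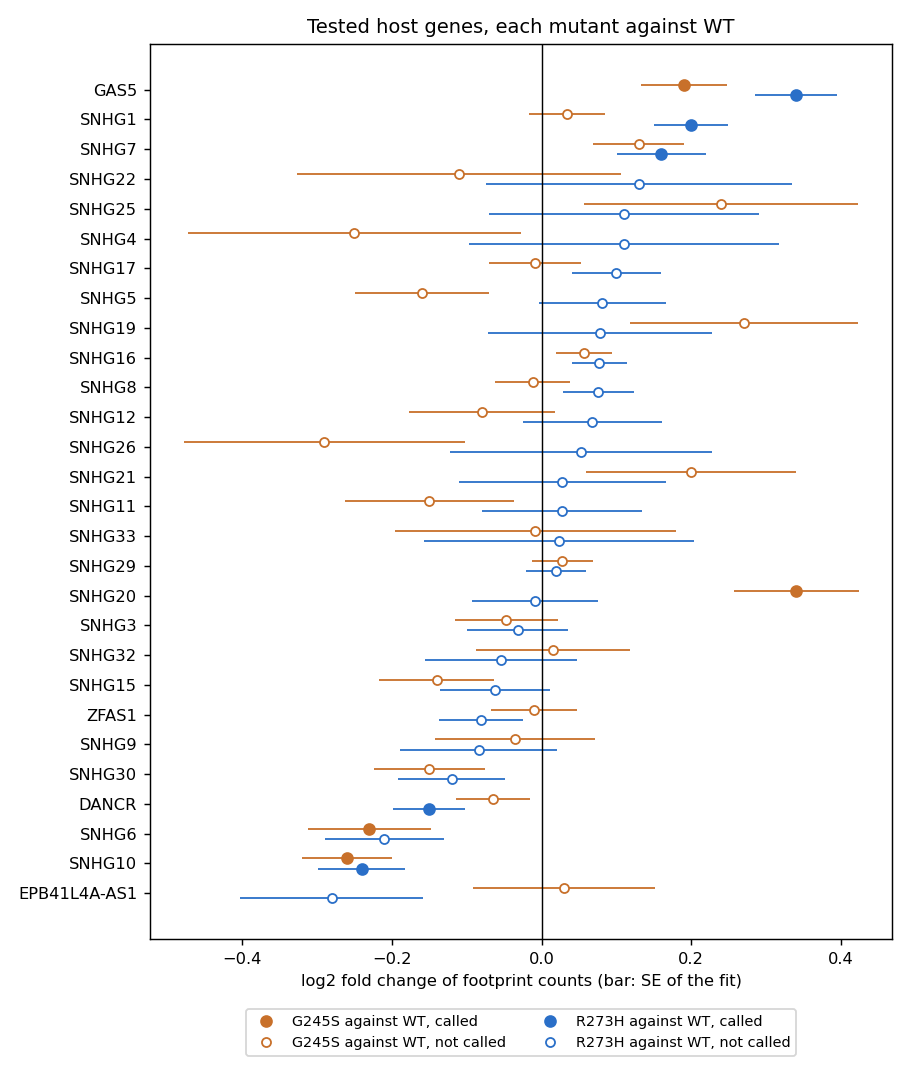
Log2 fold change of footprint counts of the 28 tested host genes in G245S against WT and R273H against WT, with bars of 1 SE of the fit and filled points for calls at an adjusted p under 0.05. GAS5 (0.19 and 0.34) and SNHG10 (-0.26 and -0.24) are filled for both mutants, and SNHG20 (0.34 and -0.0091) for G245S.

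GAS5, which hosts C/D box snoRNAs and is known as a decoy of the glucocorticoid receptor, was called in both mutants. It had 27.5, 26.7 and 27.4 CPM in the WT dishes, 33.0, 29.5 and 30.8 in G245S and 35.7, 34.8 and 33.0 in R273H. Every G245S and every R273H dish lay above every WT dish. The log2 fold change was 0.19 in G245S (SE 0.0575, adjusted p = 0.0143) and 0.34 in R273H (SE 0.0552, adjusted p = 2.0e-05), which is 1.14 and 1.27 times the WT level. The R273H call held without any single dish, whereas the G245S call was lost without WT dish 2 (adjusted p = 0.0571) or G245S dish 1 (adjusted p = 0.0870) and with DESeq2 (adjusted p = 0.0766). The G245S dishes did not exceed the lowest R273H dish, with a log2 difference of -0.15 (95% interval -0.26 to -0.047, adjusted p = 0.137). GAS5 lies on chromosome 1 (173858559 to 173868882, GRCh38). Strand handling in the counting is not given in the sources used here, so reads of a host and of a gene on its opposite strand may be shared.

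SNHG1, which hosts C/D box snoRNAs such as SNORD27, and SNHG7, which hosts SNORA17A and SNORA17B, were called in R273H against WT. SNHG1 had 34.2, 33.5 and 36.2 CPM in WT, 34.9, 36.9 and 34.7 in G245S and 39.7, 39.4 and 39.9 in R273H. The R273H dishes lay above all other dishes, and the WT and G245S dishes overlapped. Its log2 fold change was 0.20 in R273H (SE 0.0492, adjusted p = 0.00318) and 0.034 in G245S (95% interval -0.067 to 0.13, adjusted p = 0.690). The direct difference between the mutants was -0.16 (adjusted p = 0.0750). That difference passed with the SNHG1 snoRNA rows added (adjusted p = 0.0284) and with the dish number as a block (0.0285). SNHG7 had 31.4, 28.3 and 27.1 CPM in WT, 33.5, 31.7 and 29.7 in G245S and 32.8, 32.8 and 31.4 in R273H, so all groups overlapped. Its log2 fold change of 0.16 in R273H (SE 0.0590, adjusted p = 0.0411) was lost without WT dish 2 (0.135), WT dish 3 (0.181), R273H dish 1 (0.113) or R273H dish 2 (0.116), these values being adjusted p. In G245S the SNHG7 value was 0.13 (adjusted p = 0.135), and it passed without WT dish 1 (adjusted p = 0.0353).

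SNHG20, the host of SCARNA16, was higher in G245S than in both other groups. It had 12.3, 12.4 and 11.8 CPM in WT, 15.9, 14.1 and 16.2 in G245S and 12.6, 12.4 and 11.3 in R273H. The G245S dishes lay above every other dish, and WT and R273H overlapped. The log2 fold change was 0.34 against WT (SE 0.0835, adjusted p = 0.00306), or 1.27 times, and 0.35 against R273H (SE 0.0804, adjusted p = 0.0148). Between R273H and WT it was -0.0091 (95% interval -0.17 to 0.16, adjusted p = 0.952). SNHG20 was the only 1 of 28 members called between the mutants (3.57%, against 2.59% of all tested genes). That call was lost without G245S dish 1 (adjusted p = 0.0938), G245S dish 3 (0.0535) or R273H dish 3 (0.0836), while the call against WT held without any single dish. SNHG20 lies on chromosome 17 (77086716 to 77099902), and SEC14L1, which overlaps it on the same strand, had log2 fold changes of 0.079 and 0.084 (adjusted p = 0.266 and 0.204).

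SNHG10, the host of SCARNA13, was lower in both mutants. It had 25.6, 26.4 and 25.6 CPM in WT, 22.2, 21.3 and 21.6 in G245S and 21.3, 21.8 and 22.9 in R273H. All mutant dishes lay below all WT dishes, and the mutants overlapped. The log2 fold change was -0.26 in G245S (SE 0.0601, adjusted p = 0.00211) and -0.24 in R273H (SE 0.0581, adjusted p = 0.00257), which is 0.838 and 0.848 times the WT level, and both calls held without any single dish and with DESeq2. The difference between the mutants was -0.018 (95% interval -0.13 to 0.10, adjusted p = 0.926). GLRX5, an iron-sulfur cluster protein encoded on the opposite strand of this stretch of chromosome 14 (SNHG10 spans 95521943 to 95534889), had values of 0.18 (adjusted p = 0.0126) and 0.10 (adjusted p = 0.185).

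SNHG6, the host of SNORD87, had 18.7, 18.0 and 21.8 CPM in WT, 16.0, 15.6 and 18.1 in G245S and 15.7, 16.9 and 18.2 in R273H. The groups overlapped, and the highest WT dish stood apart from the other WT dishes. Its log2 fold change was -0.23 in G245S (SE 0.0823, adjusted p = 0.0395) and -0.21 in R273H (SE 0.0794, adjusted p = 0.0511). The G245S call was lost without WT dish 3 (adjusted p = 0.261), G245S dish 1 (0.135), G245S dish 2 (0.170) or R273H dish 2 (0.0504), with upper-quartile scaling (0.0520) and with DESeq2 (0.153). SNHG6 in R273H passed without WT dish 2 (0.0343), G245S dish 3 (0.0468) or R273H dish 3 (0.0306) and with the length and GC trend removed (0.0187). 

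DANCR, which hosts SNORA26 and is known for holding back osteoblast and keratinocyte differentiation, had 45.6, 41.4 and 43.3 CPM in WT, 42.3, 41.5 and 41.0 in G245S and 38.0, 40.5 and 38.6 in R273H. The R273H dishes lay below all others. Its log2 fold change was -0.15 in R273H (SE 0.0483, adjusted p = 0.0163) and -0.065 in G245S (95% interval -0.16 to 0.032, adjusted p = 0.371). The R273H call was lost without WT dish 1 (adjusted p = 0.113), R273H dish 1 (0.0783) or R273H dish 3 (0.0512). EPB41L4A-AS1, the host of SNORA13, had 6.90, 5.44 and 6.07 CPM in WT, 6.29, 5.85 and 6.68 in G245S and 4.84, 5.14 and 5.18 in R273H. Its R273H dishes also lay below all others, but the log2 fold change of -0.28 had an SE of 0.122 and did not pass (adjusted p = 0.0831), nor did the difference between the mutants (0.31, 95% interval 0.076 to 0.55, adjusted p = 0.179).

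ZFAS1, the host of the SNORD12 family and the antisense partner of ZNFX1, had 30.1, 32.4 and 32.3 CPM in WT, 32.5, 31.7 and 30.1 in G245S and 29.4, 31.7 and 28.5 in R273H. The groups overlapped. Its log2 fold change was -0.0099 in G245S (95% interval -0.12 to 0.10, adjusted p = 0.925) and -0.081 in R273H (95% interval -0.19 to 0.028, adjusted p = 0.301). ZNFX1, a helicase-like antiviral sensor on the opposite strand, fell by 0.34 and 0.33 on the log2 scale (adjusted p = 0.00142 and 0.00102).

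**Figure D3:**
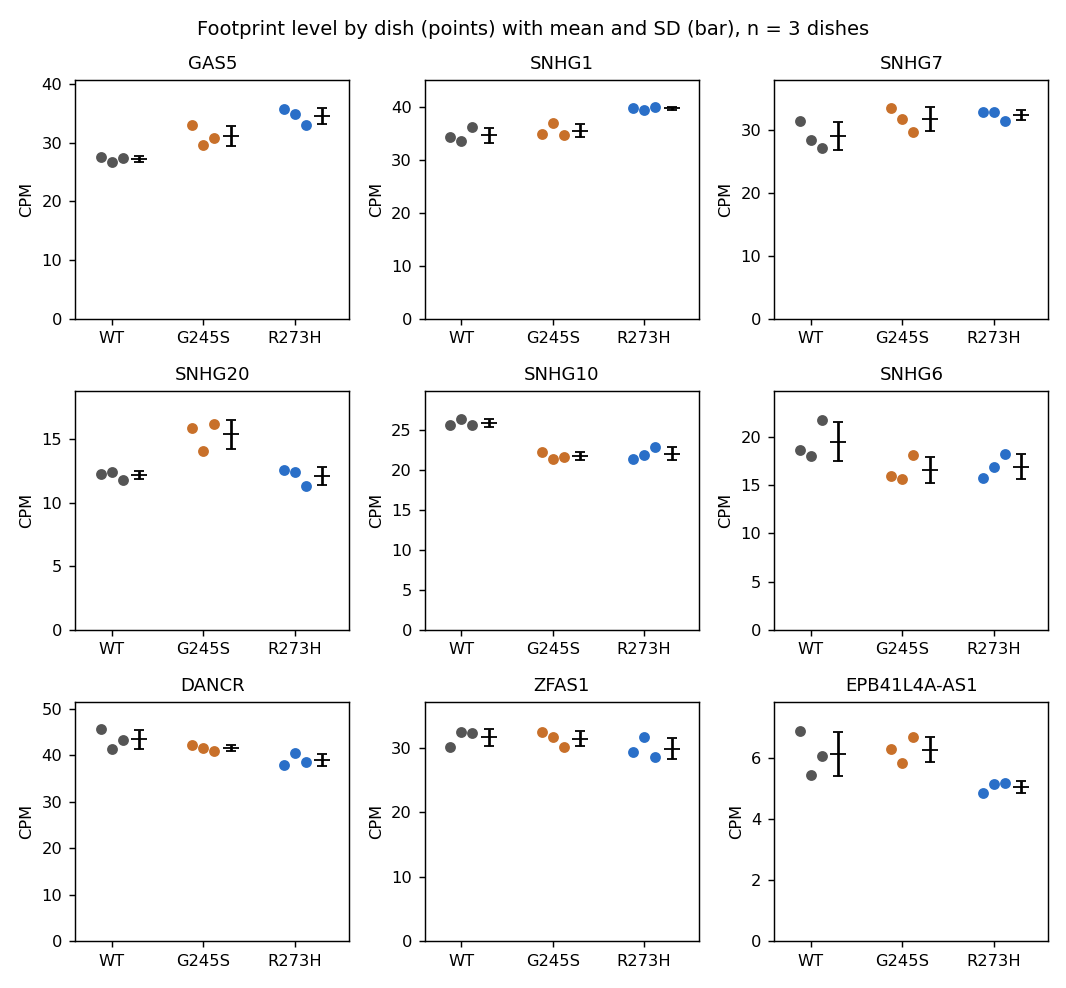
Footprint level in CPM of 9 host genes in each dish (points) with the mean and SD of 3 dishes (bars) for WT, G245S and R273H, on axes that start at 0. GAS5 rises from 26.7 to 27.5 CPM in the WT dishes to 33.0 to 35.7 in R273H, SNHG20 is high in the 3 G245S dishes, and SNHG10 is lower in all mutant dishes than in WT.

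Of the 28 tested members 21 were called in neither mutant against WT, and these include ZFAS1 and EPB41L4A-AS1. SNHG16 and SNHG29 gave the tightest bounds, with log2 fold changes of 0.057 (95% interval -0.017 to 0.13) and 0.028 (-0.052 to 0.11) in G245S, and 0.077 (0.0051 to 0.15) and 0.019 (-0.059 to 0.10) in R273H. The members with few counts had wide intervals: SNHG26 was -0.29 (-0.66 to 0.075) in G245S, SNHG4 was -0.25 (-0.69 to 0.19) and SNHG25 was 0.24 (-0.12 to 0.60). SNHG19 was 0.27 in G245S and did not pass (adjusted p = 0.201), with its G245S dishes above its WT dishes. SNHG30 in R273H was -0.12 (adjusted p = 0.237), with its R273H dishes below its WT dishes. Between the mutants, dishes did not overlap for 7 members (25.0%, against 21.5% of all tested genes): DANCR, EPB41L4A-AS1 and SNHG20 higher in G245S, and GAS5, SNHG1, SNHG17 and SNHG8 lower.

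The snoRNAs inside the hosts were counted on rows of their own. On the host's strand, 149 such rows were annotated, at least 1 in 33 of the 34 members. In 25 members a snoRNA overlaps an annotated exon of some transcript of the host. GAS5 has no annotated snoRNA row of its own in this annotation. Only 53 of the 149 rows held a count, none of the 84 inside SNHG14 did, and 15 were tested. Of the 28 tested members 26 had values that were not whole, as had 11 of the 15 tested snoRNA rows. Such values occurred across the table, in 47.6% to 49.8% of the nonzero entries of a library. They do not show which rows shared reads.

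The sequences of the SNHG16 snoRNAs and of SCARNA16 are given because SNORD1B and SCARNA16 were called, and SNORD1A and SNORD1C are the relatives of SNORD1B in the same host. They are on GRCh38 chromosome 17, plus strand. Capitals mark the longest stretch that SNORD1A, SNORD1B and SNORD1C share (17 bases), and in SCARNA16 the ACA box near the 3′ end.
SNORD1A: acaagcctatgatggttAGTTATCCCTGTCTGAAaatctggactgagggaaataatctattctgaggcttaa
SNORD1B: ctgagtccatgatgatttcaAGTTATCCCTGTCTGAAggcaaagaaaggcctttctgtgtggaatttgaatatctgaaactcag
SNORD1C: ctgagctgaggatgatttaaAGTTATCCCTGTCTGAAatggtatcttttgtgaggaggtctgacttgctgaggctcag
SCARNA16: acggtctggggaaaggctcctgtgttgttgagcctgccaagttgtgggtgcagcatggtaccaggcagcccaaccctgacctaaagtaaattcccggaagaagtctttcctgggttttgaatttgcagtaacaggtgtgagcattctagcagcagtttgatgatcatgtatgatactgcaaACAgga

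SNORD1B (76561109 to 76561192, 84 bases, in an intron of SNHG16) rose in both mutants. It had 1.99, 1.37 and 1.64 CPM in WT, 2.98, 3.15 and 2.94 in G245S and 3.58, 3.64 and 4.23 in R273H, or 26.0 to 98.0 counts, all of them whole. The 3 groups did not overlap. The log2 fold change was 0.85 in G245S (SE 0.191, adjusted p = 0.00109) and 1.19 in R273H (SE 0.182, adjusted p = 7.0e-06), and both calls held in every alternative run. The difference between the mutants was -0.33 (95% interval -0.64 to -0.023, adjusted p = 0.299). The host row had 87.7, 84.9 and 88.3 CPM in WT, 88.9, 95.6 and 87.0 in G245S and 91.3, 91.9 and 92.0 in R273H and was not called (adjusted p = 0.293 and 0.119). SNORD1C (76558791 to 76558868) had a log2 fold change of 0.40 against WT in G245S (adjusted p = 0.412) and of 0.75 in R273H (adjusted p = 0.0652), and SNORD1A (76561634 to 76561705) had too few counts for a test. A count on a snoRNA row does not show what protected the fragment from nuclease.

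SNORA71B, an H/ACA snoRNA in an intron of SNHG17 on chromosome 20 (38425083 to 38425354), had 4.96, 5.60 and 5.43 CPM in WT, 5.47, 5.19 and 5.04 in G245S and 7.93, 7.04 and 8.19 in R273H. The R273H dishes lay above all others. The log2 fold change was 0.53 in R273H (SE 0.115, adjusted p = 7.0e-04) and -0.027 in G245S (adjusted p = 0.908), with a difference between the mutants of -0.56 (adjusted p = 0.00519). SNHG17 itself averaged 28.3 ± 2.62, 28.2 ± 0.532 and 30.5 ± 0.843 CPM (SD, n = 3 dishes each) and had log2 fold changes of -0.0086 and 0.10 (adjusted p = 0.943 and 0.195). SNORD1B and SNORA71B were named after their values were seen.

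SCARNA16 (77089307 to 77089493) overlaps an annotated exon of SNHG20. It had 7.05, 7.45 and 7.07 CPM in WT, 7.91, 7.73 and 7.29 in G245S and 5.12, 5.82 and 5.82 in R273H. The R273H dishes lay below all others, whereas in the host the G245S dishes lay above all others. Its log2 fold change was -0.36 in R273H (SE 0.111, adjusted p = 0.0141) and 0.087 in G245S (adjusted p = 0.620), and it differed between the mutants by 0.45 (adjusted p = 0.0225). The R273H call was lost without WT dish 2 (adjusted p = 0.0530) or R273H dish 1 (0.0731) and with DESeq2 (0.104). The difference between the mutants was lost without G245S dish 1 (0.106), G245S dish 2 (0.0881), R273H dish 1 (0.126) or R273H dish 2 (0.0532). SCARNA13, inside SNHG10, had values of -0.41 and -0.28 (adjusted p = 0.201 and 0.370), and SNORA17B, inside SNHG7, -0.28 and 0.10 (adjusted p = 0.289 and 0.706). SNORD27 and SNORD30, inside SNHG1, were not called, although SNORD30 in R273H passed without WT dish 3 (adjusted p = 0.0191), the WT dish that held counts. SNORD27 was listed at 0 in all WT dishes and in dish 1 of each mutant, and SNORD30 at 0 in 2 of the WT dishes. In all, 1 of 15 tested snoRNA rows was called in G245S (6.67%), 3 in R273H (20.0%) and 2 between the mutants (13.3%). Of all tested genes 24.7%, 28.8% and 2.59% were called. The medians of the snoRNA rows against WT were 0.041 and 0.53, beside -6.9e-04 and -0.0024 over all tested genes. A row could pass the count filter through mutant dishes alone, as SNORD27 did with 0 in every WT dish. The 0.53 therefore does not measure a shift of the snoRNA rows as a whole.

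**Figure D4:**
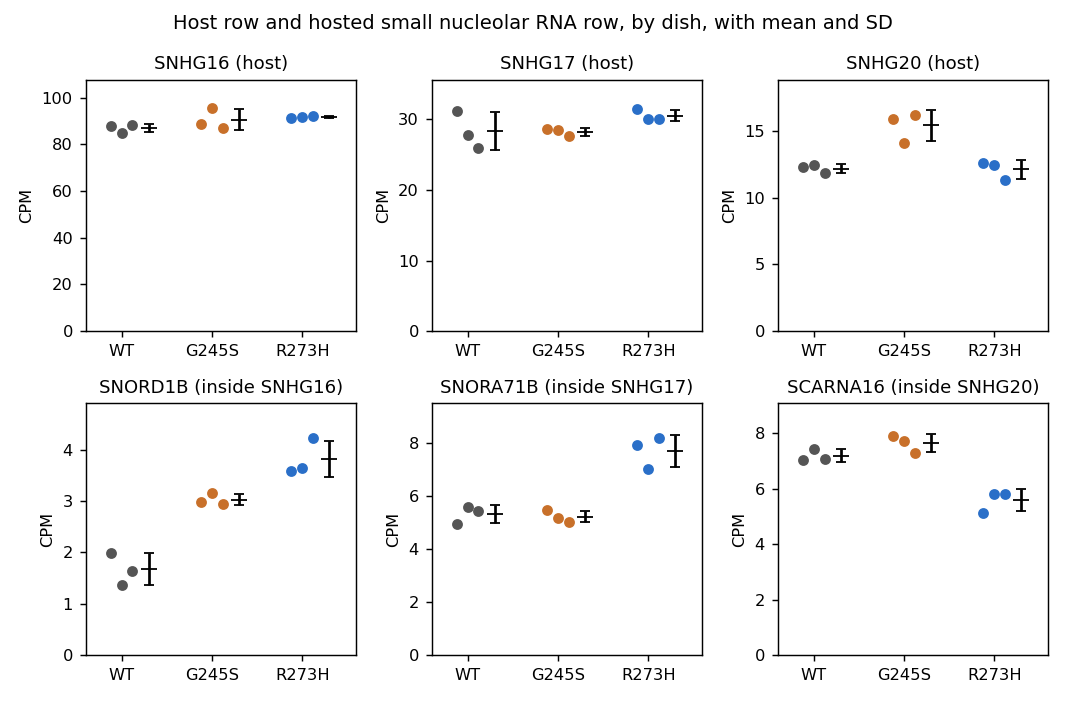
Footprint level in CPM by dish (points) with mean and SD of 3 dishes (bars), for 3 host rows (top) and a snoRNA row inside each (bottom), on axes that start at 0. SNORD1B goes from 1.37 to 1.99 CPM in WT to 3.58 to 4.23 in R273H while SNHG16 stays between 84.9 and 95.6, and SCARNA16 is low in R273H where SNHG20 is high in G245S.

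The proteins that assemble on snoRNAs and the decay pathway of their hosts were followed as lists. Of 20 genes for snoRNP core and assembly proteins, 13 were called in G245S (10 higher and 3 lower) and 11 in R273H (8 higher and 3 lower), with medians of 0.068 and 0.037. These are 65.0% and 55.0% of the list, against 24.7% and 28.8% of all tested genes and 30.5% and 33.9% of protein-coding genes. The list had a median level of 151 CPM and a median SE of 0.0338 in G245S. Over all tested genes these were 11.0 CPM and 0.0966, and over protein-coding genes 23.6 CPM and 0.0658. The part of level and precision in the shares was not tested. NOP56, a core protein of C/D box particles, rose by 0.23 in both mutants, and NUFIP1, an assembly factor, by 0.23 and 0.26, on the log2 scale. NOPCHAP1, a chaperone of NOP58, had 77.7 ± 1.35 CPM in WT, 53.4 ± 1.53 in G245S and 57.3 ± 2.53 in R273H (SD, n = 3 dishes), with log2 fold changes of -0.54 and -0.44 (adjusted p = 5.1e-11 and 1.6e-09). NOP10, a core protein of H/ACA particles, fell by 0.10 and 0.18, but the G245S call was lost without WT dish 3 (adjusted p = 0.0539) or G245S dish 3 (0.0771) and with DESeq2 (0.0533). ZNHIT3, another assembly factor, was -0.14 in G245S (adjusted p = 0.00599) beside -0.061 in R273H (adjusted p = 0.234). Between the mutants edgeR called 0 of the 20, of which 8 had an unadjusted p under 0.05. DESeq2 also called 0, but it gave no adjusted p for NUFIP1.

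Of 16 nonsense-mediated decay factors, the pathway that degrades spliced host RNAs, 8 were called in G245S (3 higher and 5 lower) and 9 in R273H (3 higher and 6 lower), with medians of -0.016 and 0.024. In R273H this is 56.2% of the list, against 28.8% of all tested genes, and the G245S count stands against 24.7% of them. The G245S count was 4 without G245S dish 2 and 5 without G245S dish 3, and DESeq2 called 5 in each mutant. SMG6, the endonuclease of the pathway, fell by 0.33 and 0.30 on the log2 scale (adjusted p = 7.1e-05 and 1.1e-04). PNRC2, a decapping adaptor, fell by 0.15 in G245S (adjusted p = 0.00339). In R273H it was -0.10 (adjusted p = 0.0321), a call that was lost without WT dish 1 (0.0542), WT dish 3 (0.147), R273H dish 1 (0.108), R273H dish 2 (0.0711) or R273H dish 3 (0.0599), with upper-quartile scaling (0.0731), with no count filter (0.130) and with DESeq2 (0.160). SMG8, a regulator of the SMG1 kinase, rose by 0.16 and 0.17. UPF1, the central helicase, was -0.072 in G245S (adjusted p = 0.0742) beside -0.15 in R273H (adjusted p = 2.1e-04). SMG1, the kinase that phosphorylates UPF1, was 0.11 in G245S (adjusted p = 0.0934) and, in R273H, 0.15, which passed but was lost without WT dish 1 (0.127) or R273H dish 2 (0.0558). In G245S, UPF1 passed without WT dish 3 (0.0182) and SMG1 without WT dish 2 (0.0198), and both passed with the length and GC trend removed (0.00529 and 0.0118). Between the mutants edgeR called 0 of the 16, of which 3 had an unadjusted p under 0.05. DESeq2 also called 0, but it gave no adjusted p for SMG6.

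Protein-coding genes with an annotated snoRNA gene within their span on their strand numbered 276, of which 239 were tested. Whether each of them makes its snoRNA was not tested. In G245S 99 were called (41.4%; 76 higher and 23 lower) and in R273H 98 (41.0%; 72 higher and 26 lower), with medians of 0.055 and 0.045, and 12 were called between the mutants (5.02%; 9 higher in G245S and 3 lower). The shares of all tested genes were 24.7%, 28.8% and 2.59%, and those of protein-coding genes 30.5%, 33.9% and 2.75%. Protein-coding genes had a median level of 23.6 CPM against 82.4 CPM for these hosts, and its part was not tested. Leaving out a dish moved the count between the mutants to 20 (WT dish 3), 3 (G245S dish 1), 6 (R273H dish 1 or 2) or 7 (R273H dish 3). IARS1, the cytosolic isoleucyl-tRNA synthetase, rose by 0.42 and 0.37 on the log2 scale and LAMB1, a laminin chain, by 0.51 and 0.38. ASTN2, a neuronal membrane protein, had 22.9 ± 0.764 CPM in WT, 3.97 ± 0.841 in G245S and 4.45 ± 0.334 in R273H (SD, n = 3 dishes), with log2 fold changes of -2.51 and -2.36, and PLCB1, a phospholipase C, had -1.07 and -0.93. The noncoding hosts had 14.3% and 17.9% called. The difference between these shares and those of the protein-coding hosts was not tested, and the protein-coding hosts have a median level of 82.4 CPM against 15.4 CPM and a median SE of 0.0388 against 0.0829 in G245S.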

How the data were processed

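Ribosome footprints from 3 dishes each of WT, G245S and R273H cells were analysed; the labels list 1 sample per group and the table has 1 column per dish. The deposited table holds expected counts per gene (estimated counts that need not be whole) that the authors made with Trim Galore, UMI-tools where it applied, SortMeRNA and STAR on GRCh38, with no scaling for depth or length. The counter, annotation release, strand setting and use of whole transcripts or coding regions are not given in the sources used here. In each library 47.6% to 49.8% of nonzero entries were fractional (tolerance 0.01).

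Rounded counts went into a quasi-likelihood model of edgeR 4.0.16 (R 4.3.3) after default filterByExpr and TMM scaling. The robust model held the 9 libraries together and had a term for group alone, leaving 6 residual degrees of freedom, and tests were two-sided. Intervals are 1.96 SE to either side. The p-values measure the spread between dishes pooled within a group. Of 63241 rows, 62666 matched GENCODE v44 by identifier, which gave coordinates, lengths and snoRNA positions. The fit was tested on simulated counts.

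The members and lists were chosen with earlier results of these data known. Named were GAS5, DANCR, ZFAS1, EPB41L4A-AS1 and SNHG1; up to 6 called members per mutant with the largest change, if they averaged 100 counts or more; members called between the mutants; snoRNA rows inside these that averaged 10 counts or more; and the 2 largest called changes in each direction of each list. MDM2 and CDKN1A served as a check of the labels of WT against the mutants. 1 gene that the rule names is not reported here. Alternatives were RLE and upper-quartile scaling, no count filter, DESeq2 1.42.0, a minimum fold change of 1.2, only the libraries compared, each dish left out, the dish number as a block, host and snoRNA rows summed, and a length and GC trend removed.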

Additional observations from a re-analysis of the deposited data

Results flagged for a closer look

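Footprint levels differed between the G245S and R273H groups, by the direct test, for 4 named genes. None of the 4 passed when the change had to exceed 1.2-fold. The calls of SNHG20 and SCARNA16 were also lost without certain single dishes, as given above. SNHG20 was higher in G245S than in R273H by 0.35 on the log2 scale (adjusted p = 0.0148), in all 3 dishes. SCARNA16, inside SNHG20, was also higher, by 0.45 (adjusted p = 0.0225). SNORA71B, inside SNHG17, had a log2 difference of -0.56 (G245S minus R273H, adjusted p = 0.00519). LAMB1, a protein-coding snoRNA host, differed by 0.13 (adjusted p = 0.0206), and this was lost without G245S dish 1 (0.0772), G245S dish 3 (0.0809), R273H dish 1 (0.113) or R273H dish 3 (0.0866). DESeq2 gave no adjusted p for SNHG20, SCARNA16 or SNORA71B in this comparison. Each mutant was its own pool from reverse transcription onward, so mutant and pool cannot be told apart.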

How the results depend on the processing

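None of the 43 called values of named genes changed sign under any alternative, whereas 14 of 50 that were not called did, such as ZFAS1 in G245S (-0.0099, and 0.026 without G245S dish 3). For the host genes there were 4, 5 and 1 calls. The order throughout is G245S against WT, R273H against WT, then the mutants against each other. These calls became 0, 0 and 0 against a minimum fold change of 1.2 and 2, 3 and 0 with DESeq2. The last 0 does not bear on SNHG20, for which DESeq2 gave no adjusted p between the mutants. Removing a length and GC trend gave 8 calls in R273H, and summing host and snoRNA rows gave 4 between the mutants. Leaving out 1 dish gave 2 to 5, 3 to 6 and 0 to 1 calls. For the hosted snoRNA rows, 1, 3 and 2 calls became 1 to 1, 2 to 4 and 1 to 2 when 1 dish was left out. The minimum fold change gave 1 in R273H and 0 between the mutants. DESeq2 also gave 0 between the mutants, where it had no adjusted p for SCARNA16 or SNORA71B. For snoRNP proteins the minimum fold change left 1 and 1 of 13 and 11, and leaving out a dish gave 11 to 12, 9 to 11 and 0 to 0. For decay factors it left 0 and 0 of 8 and 9, DESeq2 called 5 and 5, and leaving out a dish gave 4 to 9, 6 to 9 and 0 to 0. For protein-coding hosts it left 5, 5 and 0 of 99, 98 and 12, and leaving out a dish gave 79 to 103, 83 to 101 and 3 to 20.

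Dishes share numbers across groups, but same-numbered dishes correlated at 0.042 to 0.228, not all above 0.1, so the number was not taken as a pairing. However, 17 of 18 comparisons were highest with the own number. Whether same-numbered dishes shared a batch was not tested. Taking the number as a block raised the calls between the mutants from 513 to 1262 over all tested genes. With the replicate block, calls between the mutants were 2 for the host genes (SNHG1 added), 4 for snoRNP proteins, 1 for decay factors and 31 for protein-coding hosts, and hosted snoRNA calls were 2 in G245S and 5 in R273H. The block also called SNORD27 in both mutants (adjusted p = 5.7e-06 and 1.6e-06) and SNHG6 in R273H (0.0134), and UPF1 (0.0139) and SMG1 (0.0311) in G245S. The causes were not tested. Small changes are limited by depth: the 6 tested members with a mean under 100 counts had intervals too wide to show a 1.2-fold change.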
